A study of Mus musculus with 6 samples.

Results

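The genes described here are 9 genes that mark B lymphocytes, Cd79a, Cd79b, Ms4a1, Pax5, Cr2, Fcer2a, Cd22, Blk and Spib. They were taken by name from a table of 57180 genes, where all 9 were found, each in 1 row. All 9 also reached the mean of 1 TPM needed for testing. RNA sequencing had been done on inguinal white adipose tissue, the subcutaneous fat of the groin, from male wild-type mice. A high-fat diet alone (HFD, 3 libraries) was compared with a high-fat diet holding 0.5% hesperidin, a flavonoid glycoside of citrus fruit (HEP, 3 libraries). Every library thus came from a mouse on high-fat diet, for 12 weeks, and all carried the same batch label. The series also describes mice on a control diet, which were not analysed here. Levels are in TPM, a share of all transcripts corrected for transcript length, so levels of different genes can be set side by side. TPM keeps no read depth, so the depth behind each value is unknown and no counting interval could be given. Nothing in the labels says whether the 3 libraries of a group came from 3 animals, so every p-value here refers to library-to-library spread, part of which may be technical.

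B cells recognise antigen through a surface immunoglobulin whose signal is carried into the cell by the paired chains encoded by Cd79a and Cd79b. Pax5 is the transcription factor that holds cells in the B lineage, and the mature follicular B cell carries Cr2, Fcer2a and Cd22 at its surface. Fat tissue holds scattered B cells, while lymph nodes hold them packed in follicles, and the mouse inguinal fat pad encloses a lymph node. The labels do not say whether that node was removed.

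The 9 genes were high in 3 libraries and at 2.95 TPM or below in the other 3, and this split did not follow the diet. Their summed level was 6.01 and 6.61 TPM in HFD replicates 1 and 2 and 6.44 TPM in HEP replicate 2. It was 573 TPM in HFD replicate 3, 1139 TPM in HEP replicate 1 and 1252 TPM in HEP replicate 3. The lowest of the high sums was 86.7 times the highest of the low sums. Each of the 9 genes had the same 3 libraries at the top, a pattern that 30.5% of the 15446 tested genes also showed. These 3 libraries were picked by the summed level of the 9 genes, so the match was partly built in. Members under 1 TPM in the other 3, such as Cr2 and Blk, reached the mean of 1 TPM only through them. In bulk tissue, fewer cells of a type and less RNA per cell cannot be told apart.

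**Figure D1:**
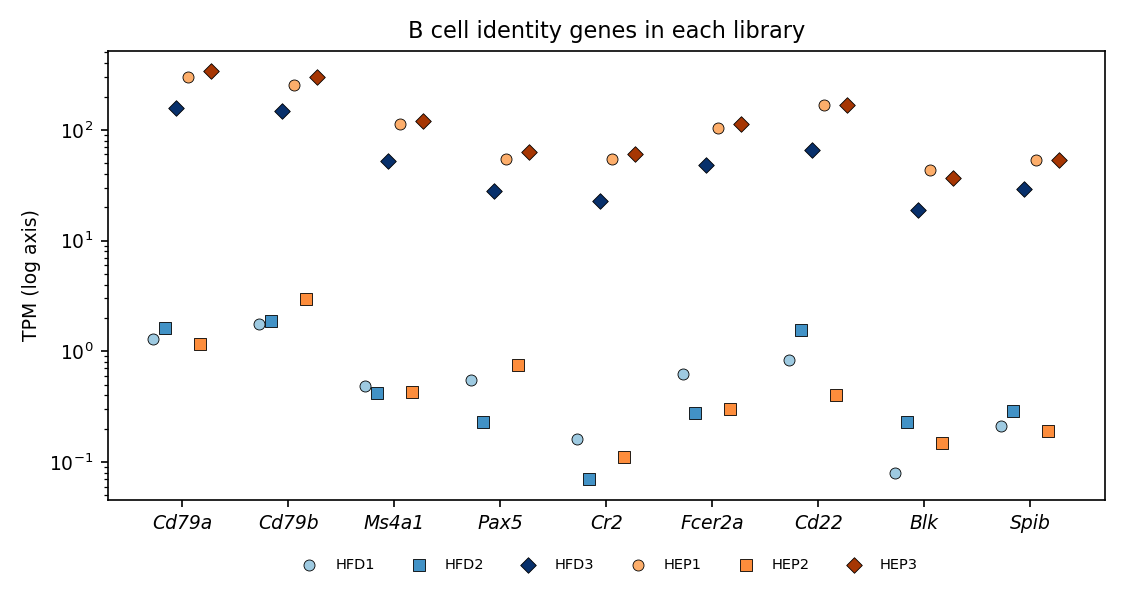
TPM on a log axis (y) of each B cell identity gene (x) in each of the 6 libraries, 1 point per library, with blue shades for HFD and orange shades for HEP. HFD3, HEP1 and HEP3 lie at 18.8 TPM or above for every gene, and HFD1, HFD2 and HEP2 at 2.95 TPM or below.

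The antigen receptor chains were the most abundant members. Cd79a (ENSMUSG00000003379), whose product is the signalling chain Ig-alpha, measured 1.30, 1.64 and 159 TPM across HFD replicates 1 to 3. In HEP the corresponding libraries gave 299, 1.16 and 339 TPM. The lowest value of all thus fell in the HEP group, and the groups overlapped. The Cd79a mean was 54.0 ± 91.0 TPM (SD, n = 3) for HFD, against 213 ± 185 TPM for HEP. Its partner Cd79b (ENSMUSG00000040592, Ig-beta) measured 1.77, 1.89 and 149 TPM on HFD and 252, 2.95 and 299.9 TPM with hesperidin. Cd79b exceeded Cd79a in the 3 low libraries, with a ratio of 1.36, 1.15 and 2.54 in HFD replicates 1 and 2 and HEP replicate 2. In HFD replicate 3 and HEP replicates 1 and 3, Cd79a was the higher of the pair, and the same ratio was 0.939, 0.843 and 0.885.

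Promoter sequences are shown for 4 members as examples, to print each of the 3 motifs found at least once. RefSeq windows on build GRCm38.p6 were used for Cd79a, Pax5, Cr2, Cd22 and Spib, 1 each, and for Fcer2a, with 3, so 6 of the 9 genes matched. The build of the authors' files is not given in the sources used here. The 250 bases before each start were searched on both strands for the octamer ATGCAAAT, the ETS family letters GAGGAA, the EBF letters CCCNNGGG (the same on either strand) and the E-box CAGGTG. The stretches below run 5′ to 3′ on the gene's strand, outside annotated exons, with matches in capitals.

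Cd79a chr7:24897247-24897380, plus strand: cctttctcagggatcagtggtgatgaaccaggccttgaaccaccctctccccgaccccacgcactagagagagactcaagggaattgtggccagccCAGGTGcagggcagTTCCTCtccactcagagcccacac

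Cr2 chr1:195176720-195176969, minus strand: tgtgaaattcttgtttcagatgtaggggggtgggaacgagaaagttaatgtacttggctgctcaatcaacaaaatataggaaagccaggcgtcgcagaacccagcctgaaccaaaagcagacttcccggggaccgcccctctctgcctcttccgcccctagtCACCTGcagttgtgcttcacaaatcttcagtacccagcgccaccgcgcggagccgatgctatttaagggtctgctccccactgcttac

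Cd22 chr7:30879029-30879176, minus strand: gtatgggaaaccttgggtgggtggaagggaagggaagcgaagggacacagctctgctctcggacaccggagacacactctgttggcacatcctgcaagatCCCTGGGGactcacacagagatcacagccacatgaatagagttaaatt

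Spib chr7:44532072-44532321, minus strand: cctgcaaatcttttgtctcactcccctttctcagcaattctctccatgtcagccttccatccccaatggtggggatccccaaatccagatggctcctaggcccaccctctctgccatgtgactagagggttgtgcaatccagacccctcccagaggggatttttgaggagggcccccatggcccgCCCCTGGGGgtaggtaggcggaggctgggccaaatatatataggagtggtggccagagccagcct

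In Cd79a the capitals are an E-box starting 154 bases before the start and a reverse-strand ETS match starting 140 bases before it. Cr2 holds a reverse-strand E-box 88 bases before its start and Cd22 an EBF match at 48 bases. Spib holds 2 EBF matches at 65 and 64 bases, which overlap in a single run of letters. Not shown are 2 E-boxes in 1 Fcer2a window, 244 and 99 bases before its start, and a reverse-strand E-box of Cd22 at 245 bases, outside the stretch printed. The E-box was found in 4 of the 8 member windows, against 17.2% of all 32851 windows of that length. EBF letters were found in 2 of 8 against 11.8%, ETS letters in 1 of 8 against 23.3%, and the octamer in 0 of 8 against 1.60%. These are letter matches only.

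Pax5 and Spib, the transcription factors among the members, stood at lower levels than the receptor chains. Pax5 (ENSMUSG00000014030) measured 0.55, 0.23 and 28.1 TPM on HFD and 55.0, 0.75 and 62.9 TPM with hesperidin. The Pax5 mean was 9.62 ± 16.0 TPM (SD, n = 3) for HFD, against 39.6 ± 33.8 TPM for HEP. Spib (ENSMUSG00000008193) encodes an ETS family factor of B cells that is also made by plasmacytoid dendritic cells. It measured 0.21, 0.29 and 29.25 TPM on HFD and 53.6, 0.19 and 53.45 TPM with hesperidin. Spib was nearly equal in HEP replicates 1 and 3. For either gene the highest HFD library lay above the lowest HEP library. Of the 7 genes listed for plasmacytoid dendritic cells, 5 had the same 3 libraries highest, against 30.5% of all tested genes. The list summed to 165, 189.9 and 281 TPM on HFD and 379, 258 and 418 TPM with hesperidin. Bst2 alone gave 107 to 137 TPM of each sum, and Cox6a2 84.5 TPM of the sum in HEP replicate 2. Siglech, a receptor that defines plasmacytoid dendritic cells, and Cox6a2 are named here after their values were seen. Siglech had 0.88, 1.87 and 11.2 TPM on HFD and 21.4, 1.08 and 21.1 TPM with hesperidin. Cox6a2 did not show that split, with 0, 4.61 and 1.22 TPM on HFD and 6.15, 84.5 and 3.22 TPM with hesperidin. Its highest value lay in HEP replicate 2, which also held 17166 TPM of 12 skeletal muscle genes. The part of muscle in the Cox6a2 level was not tested. Ly6d, which B cells make as well, had 1.28, 3.32 and 107 TPM on HFD and 171, 0.46 and 209 TPM with hesperidin, while Bst2, made by many cell types, lay between 107 and 137 TPM without that split. Tcf4, also widely made, had the 3 libraries highest by a narrow margin, with 39.6, 46.9 and 48.55 TPM on HFD and 47.9, 33.0 and 50.35 TPM with hesperidin. The part of these cells in the Spib level was not tested.

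Cr2, Fcer2a and Ms4a1 are surface proteins of mature B cells. Cr2 (ENSMUSG00000026616), the complement receptor CD21, measured 0.16, 0.07 and 22.8 TPM on HFD and 54.9, 0.11 and 60.4 TPM with hesperidin. The Cr2 mean was 7.69 ± 13.1 TPM (SD, n = 3) for HFD, against 38.5 ± 33.3 TPM for HEP. Fcer2a (ENSMUSG00000005540), the low-affinity IgE receptor CD23, measured 0.62, 0.28 and 47.7 TPM on HFD and 103, 0.30 and 112 TPM with hesperidin. Ms4a1 (ENSMUSG00000024673), which encodes CD20, measured 0.49, 0.42 and 52.05 TPM on HFD and 112, 0.43 and 119 TPM with hesperidin. All 3 genes were under 1 TPM in the same 3 libraries. Cr2 had the widest gap of any member: its lowest high value was 143 times its highest low value, against 37.5 times for Pax5, the narrowest. Those highest low values were 0.16 and 0.75 TPM, so the order of the gaps rests on values of unknown counting error.

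Cr2 and Fcer2a are also made by follicular dendritic cells, the stromal cells that hold antigen in B cell follicles. Of the 6 genes listed for those cells, 4 had the same 3 libraries highest, against 30.5% of all tested genes. The list summed to 428, 669 and 777 TPM on HFD and 940.5, 544 and 878.5 TPM with hesperidin. Cxcl13, the chemokine that draws B cells into follicles, had 15.2, 4.70 and 65.1 TPM on HFD and 115, 14.8 and 132 TPM with hesperidin. Clu, an abundant secreted chaperone, had 43.9, 48.9 and 272 TPM on HFD and 370, 61.3 and 338 TPM with hesperidin. Mfge8, a bridging protein for dying cells that fat tissue also makes, had 344, 574 and 395 TPM on HFD and 389, 441 and 359 TPM with hesperidin, with no such split. The part of these cells in the Cr2 and Fcer2a levels was not tested.

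The remaining members act on receptor signalling. Cd22 (ENSMUSG00000030577), a sialic acid-binding inhibitor of the antigen receptor, measured 0.83, 1.56 and 65.8 TPM on HFD and 167, 0.40 and 169 TPM with hesperidin. The Cd22 mean was 22.7 ± 37.3 TPM (SD, n = 3) for HFD, against 112 ± 96.8 TPM for HEP. Blk (ENSMUSG00000014453), a SRC family kinase of B cells, measured 0.08, 0.23 and 18.8 TPM on HFD and 43.1, 0.15 and 37.0 TPM with hesperidin. Blk and Spib were the 2 members at a lower level in HEP replicate 3 than in HEP replicate 1. No member was listed at 0 in any library, and 20 of the 27 values in the 3 low libraries were under 1 TPM.

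The order of the members was nearly the same in the 3 libraries where they were high. Cd79a, Cd79b, Cd22, Ms4a1 and Fcer2a took ranks 1 to 5 in HFD replicate 3 and in HEP replicates 1 and 3, and Blk was last. The middle ranks lay close together: in HEP replicate 1, Pax5, Cr2 and Spib had 55.0, 54.9 and 53.6 TPM, and their order there differed from that in HFD replicate 3. Cd79a made up 27.8, 26.2 and 27.1% of the summed level of the 9 genes in HFD replicate 3 and HEP replicates 1 and 3. Cr2 made up 3.98, 4.82 and 4.82%. In the low libraries the makeup varied more, with Cd79b at 29.5, 28.6 and 45.8% and Cd22 at 13.8, 23.6 and 6.21% in HFD replicates 1 and 2 and HEP replicate 2, on sums under 7 TPM.

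**Figure D2:**
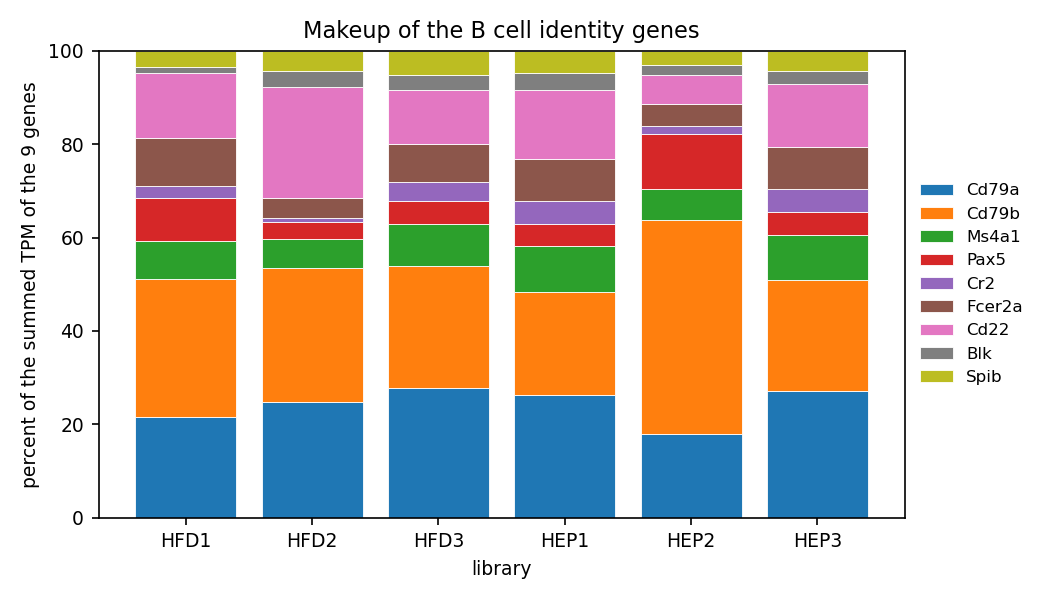
Percent of the summed TPM of the 9 genes (y) that each gene takes in each library (x), as stacked bars. The bars of HFD3, HEP1 and HEP3 look alike, with Cd79a at 26.2 to 27.8%, while Cd79b takes 45.8% in HEP2.

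The comparison set by the design is hesperidin against the high-fat diet alone. All 9 members had a higher mean log2(TPM + 1) in HEP, as did 58.6% of all tested genes, but no member was called. The members shared 1 split, high in HEP replicates 1 and 3 and in HFD replicate 3. Their common direction reflects that split and is not 9 separate results. In the limma fit, 0 of 9 members had an adjusted p under 0.05, where 0% of the 15446 tested genes did. At an unadjusted p under 0.05 there were 0 of 9 members, against 1.81% of all genes. The groups were free of overlap for 0 of 9 members, against 5.46% of all genes. The log2 fold changes ran from 2.06 ± 1.76 (SE) for Blk to 2.65 ± 2.23 for Cd79b, with a median of 2.34, beside a median of 0.07 over all tested genes. Cd79a had an estimate of 2.61 with a 95% interval from -3.43 to 8.65, and Pax5 one of 2.27 with an interval from -2.07 to 6.62. The adjusted limma p was 0.879 for each of the 9.

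**Figure D3:**
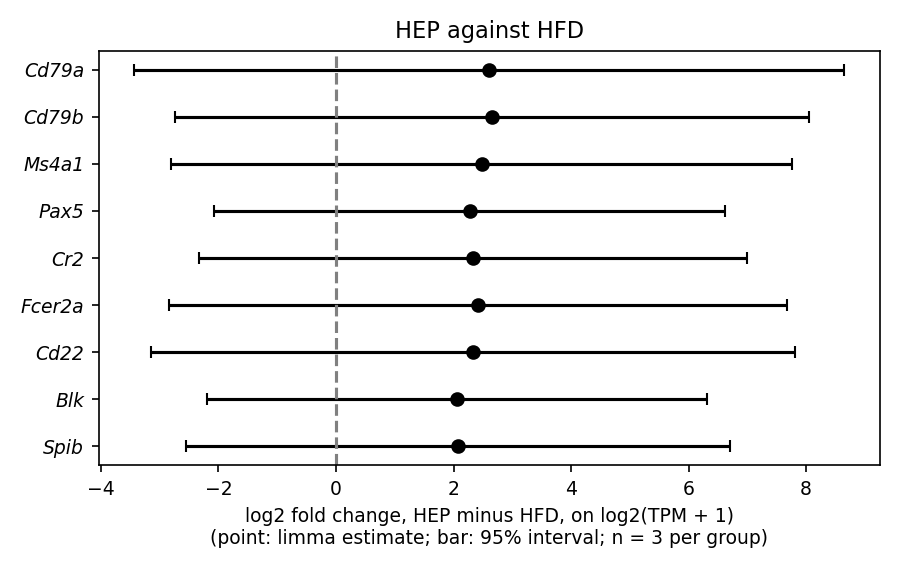
Log2 fold change of HEP minus HFD on the log2(TPM + 1) scale (x) for each gene (y), with the limma estimate as a point and its 95% interval as a bar, 3 libraries per group. Every interval spans 0, and the estimates lie between 2.06 and 2.65.

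Leaving out single libraries moved these estimates. For the members, HEP replicate 2 was the only low HEP library and HFD replicate 3 the only high HFD library. Leaving out either therefore had to raise the estimates. The median over the members was 4.54 without HEP replicate 2, where all 9 reached an unadjusted limma p under 0.05, as did 23.8% of all tested genes, and the adjusted p lay between 0.207 and 0.209. Leaving out HFD replicate 3 gave 3.98. The median fell to 1.62 and 1.57 when HFD replicate 1 or 2 was dropped, and to 1.42 and 1.35 when HEP replicate 1 or 3 was. HEP replicate 2 also held 17166 TPM of 12 skeletal muscle genes, against 62.2 to 1938 TPM elsewhere, and with HFD replicate 1 it was high in liver transcripts (2652 and 1744 TPM over 8 genes, against at most 115). Without those 2 libraries, a choice made after seeing the data, the median was 3.69 with 0 of 9 called. The part of these transcripts in the result was not tested.

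Other B cell genes were read from 6 lists of 68 genes in all, of which 62 were tested and 0 passed. Of the tested genes 55 had a higher and 7 a lower mean in HEP, with a median log2 fold change of 1.04, and 49 had the same 3 libraries highest as the members. Among 18 genes of receptor signalling, 16 had these libraries highest. Cd72, an inhibitory coreceptor, had 3.45, 7.05 and 52.8 TPM on HFD and 121, 3.52 and 115 TPM with hesperidin. Ptpn6, the phosphatase recruited by such inhibitors in many blood cells, had 4.77, 11.6 and 63.25 TPM on HFD and 106, 6.89 and 117 TPM with hesperidin. Cd81, a tetraspanin made by most cells, was lowest in those 3 libraries, with 294, 371 and 269 TPM on HFD and 245, 357 and 221 TPM with hesperidin.

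Of 12 transcription factors of the lineage, 10 had the 3 libraries highest. Ikzf1, the lymphoid factor Ikaros, had 3.35, 5.97 and 52.5 TPM on HFD and 88.4, 2.94 and 92.1 TPM with hesperidin. Irf8, made by B cells and myeloid cells, had 4.72, 10.3 and 39.7 TPM on HFD and 64.0, 6.49 and 62.05 TPM with hesperidin. Mef2c had 12.2, 15.8 and 30.6 TPM on HFD and 50.6, 20.9 and 59.9 TPM with hesperidin. Ebf1, which starts the B cell programme and is also made by fat cells and their precursors, had 42.2, 41.2 and 34.4 TPM on HFD and 44.0, 40.3 and 36.6 TPM with hesperidin, without a split between libraries.

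All 14 surface and survival receptors had the 3 libraries highest. H2-Ob, a subunit of the class II peptide-loading modulator of B cells, had 1.45, 1.81 and 89.97 TPM on HFD and 234, 2.21 and 202 TPM with hesperidin. Cd37, a tetraspanin of leukocytes, had 7.87, 12.1 and 78.0 TPM on HFD and 184, 7.91 and 169 TPM with hesperidin. Fcmr, the receptor for IgM, had 0.43, 0.93 and 65.3 TPM on HFD and 121, 0.35 and 145 TPM with hesperidin. Cd55, a complement inhibitor of many cell types, was never low, at 41.0, 39.4 and 85.1 TPM on HFD and 125, 42.7 and 131 TPM with hesperidin.

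Of 9 germinal centre genes 4 reached a mean of 1 TPM, and 2 of those 4 had the 3 libraries highest. Over all tested genes the share was 30.5%. Bcl6, the factor of the germinal centre that fat cells also make, had 9.71, 9.18 and 12.9 TPM on HFD and 19.1, 11.1 and 24.7 TPM with hesperidin. Gcsam had 0.13, 0.45 and 2.06 TPM on HFD and 2.35, 0.27 and 2.03 TPM with hesperidin, while S1pr2, between 1.53 and 2.78 TPM, did not split the libraries in this way. The death receptor Fas had 42.2, 44.5 and 41.7 TPM on HFD and 35.7, 38.65 and 32.7 TPM with hesperidin. These groups did not overlap, as for 5.46% of all tested genes, and the adjusted limma p was 0.879.

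Of 8 plasma cell genes, 4 had the 3 libraries highest, against 30.5% of all tested genes. Jchain, which links secreted IgA and IgM, had 2.72, 2.25 and 46.6 TPM on HFD and 38.2, 2.29 and 32.3 TPM with hesperidin, so here HFD replicate 3 was the highest library, unlike for any of the 9 members. Mzb1, a chaperone of immunoglobulin assembly, had 0, 0.24 and 26.95 TPM on HFD and 32.8, 0.50 and 44.9 TPM with hesperidin. Xbp1, the factor of secretory cells in general, had 126, 132 and 101 TPM on HFD and 126, 149.95 and 77.8 TPM with hesperidin. Sdc1 lay between 6.98 and 19.55 TPM without that split. The groups did not overlap for 2 of the 8 genes, against 5.46% of all tested genes. These were Tnfrsf17 and Derl3, named after their values were seen. Both were higher in HEP, at means of 1.275 and 1.12 TPM over all libraries, with an adjusted limma p of 0.879 each. Of 7 marginal zone and B1 cell genes 6 were tested. Of those 6, 3 had HFD replicate 3 and HEP replicates 1 and 3 highest, against 30.5% of all tested genes. One was Cd5, which T cells make as well, at 0.20, 0.61 and 18.6 TPM on HFD and 27.2, 0.26 and 27.6 TPM with hesperidin. Another was S1pr3, by a narrow margin, between 8.87 and 14.3 TPM over all libraries. The last was Dtx1, named after its values were seen. It had 0.28, 0.14 and 7.04 TPM on HFD and 13.0, 0.24 and 11.55 TPM with hesperidin. Cd1d1 (162 to 388 TPM) and Cd9 (80.8 to 145 TPM) were abundant in every library.

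T cell and lymph node stroma markers were high in the same libraries as the members. All 15 T cell genes had the same 3 libraries highest. Their summed level was 17.6, 34.6 and 709.6 TPM on HFD and 974, 22.95 and 1042 TPM with hesperidin. Cd247 alone gave 8.64, 12.9 and 8.73 TPM of the sums in HFD replicates 1 and 2 and HEP replicate 2. All 6 lymph node stroma genes, of which 5 were tested, also had these 3 libraries highest. They summed to 19.25, 10.4 and 917 TPM on HFD and 1101, 19.15 and 1164 TPM with hesperidin. Cxcl13, which is on this list too, gave 15.2, 4.70 and 14.8 TPM of the sums in HFD replicates 1 and 2 and HEP replicate 2. Cd3g, a chain of the T cell receptor complex, had 0.45, 1.38 and 101 TPM on HFD and 116, 1.22 and 145 TPM with hesperidin. Glycam1, a ligand made by high endothelial venules, was listed at 0 in HFD replicates 1 and 2 and HEP replicate 2, and had 132, 119.8 and 195 TPM in HFD replicate 3 and HEP replicates 1 and 3. Ccl21a, the chemokine of the T cell zone, had 0.87, 0.28 and 519 TPM on HFD and 695, 0 and 670.1 TPM with hesperidin. Ccl19, which attracts T cells and dendritic cells, had 2.95, 5.35 and 198 TPM on HFD and 168, 3.87 and 163 TPM with hesperidin. None of 10 macrophage genes had those 3 libraries highest, and their sum was highest in HEP replicate 1 and lowest in HFD replicate 1, at 1630 and 628 TPM. Lyz2 alone gave 1177 and 291 TPM of these sums, while C1qa and C1qb were highest in HFD replicate 2, at 141 and 152 TPM. The 10 fat cell genes summed to 49513, 51376 and 39658 TPM on HFD and 31282, 50710 and 29317 TPM with hesperidin, lowest in the 3 libraries where the B cell genes were high. The part of lymph node tissue in the B cell levels was not tested.

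**Figure D4:**
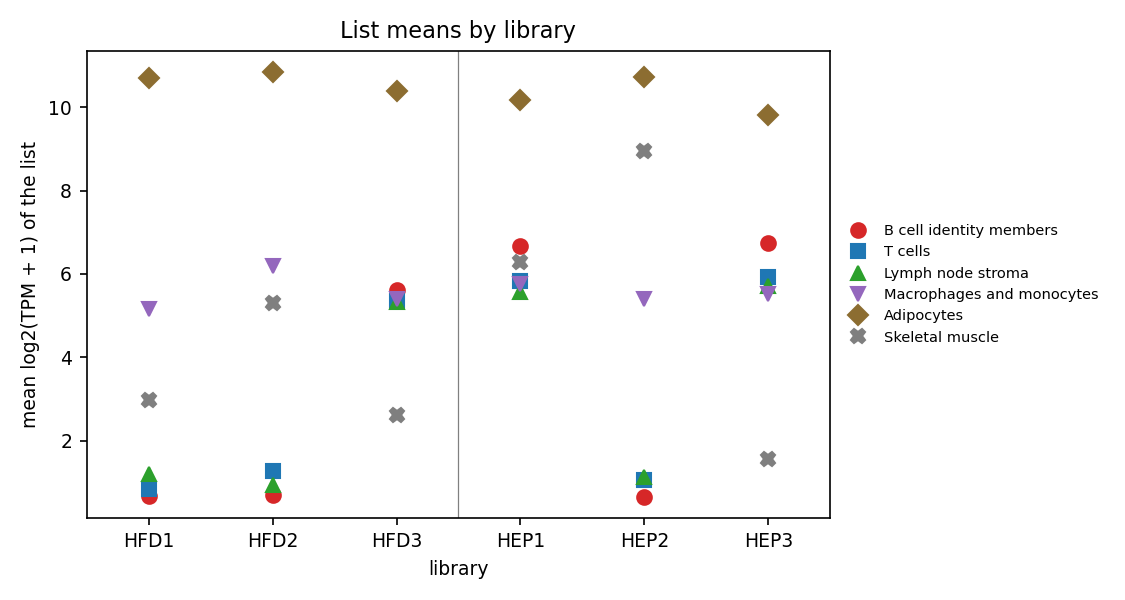
Mean log2(TPM + 1) of 6 gene lists (y) in each library (x), 1 point per list and library, with HFD left and HEP right of the line. The B cell, T cell and lymph node stroma lists are all high in HFD3, HEP1 and HEP3 and low in the others, while skeletal muscle peaks in HEP2.

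Among the 3 libraries where B cell genes were high, both HEP libraries exceeded the HFD library. The summed level of the 9 members in HEP replicates 1 and 3 was 1.99 and 2.19 times that in HFD replicate 3. Between the HEP libraries the ratio was 1.10. By gene, the ratio to HFD replicate 3 ran from 1.69 to 2.54 in HEP replicate 1 and from 1.83 to 2.65 in HEP replicate 3, with Cd22 at 2.54 and 2.57 and Cr2 at 2.41 and 2.65. For the 15 T cell genes the ranges were 1.15 to 1.97 and 1.23 to 2.16, with medians of 1.46 in each library. All 9 members lay above those medians, and 5 of 9 lay above the highest T cell gene, in each library. In mean log2(TPM + 1), the members stood 0.28 above the T cell list in HFD replicate 3 and 0.82 and 0.83 above it in HEP replicates 1 and 3. In HFD replicates 1 and 2 and HEP replicate 2 they stood below it, by differences of -0.16, -0.57 and -0.39. With 1 HFD library among the 3, these ratios compare libraries and have no replicate check on the HFD side, so no test was made. With the T cell mean as a covariate in limma, the median log2 fold change of the members was 0.22, and 0 of 9 passed. The T cell mean was itself high in the same 3 libraries, so it takes up most of the members' split. That fit therefore cannot serve as a check on the ratios.

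**Figure D5:**
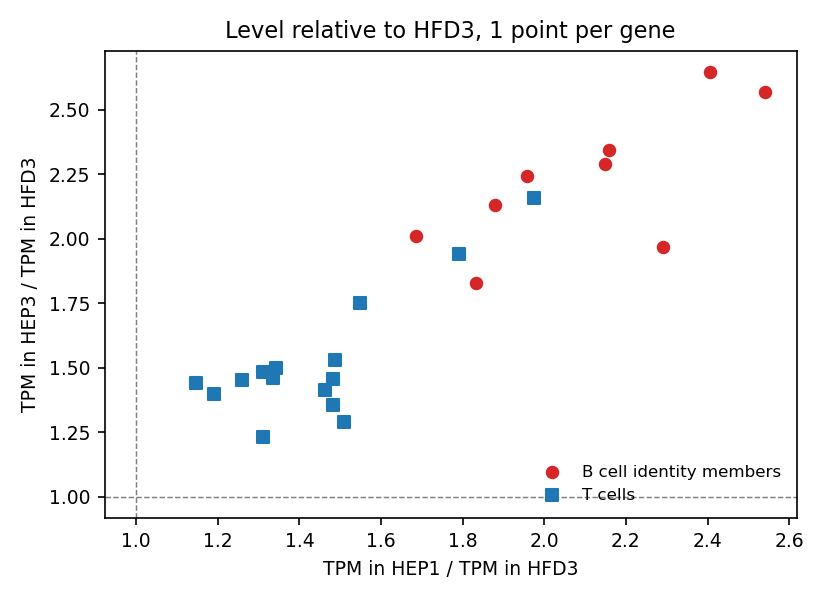
TPM in HEP1 (x) and in HEP3 (y) divided by TPM in HFD3, 1 point per gene, for the 9 B cell identity genes (red) and 15 T cell genes (blue). All points lie above 1 on each axis, and the red points reach 2.54 and 2.65, above the highest blue point at 1.97 and 2.16.

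The genes most like the members were sought among 13174 other named genes tested, by the root mean square difference between centred log2(TPM + 1) profiles over the 6 libraries. This measure takes in the size of the swing, so it favours genes of like abundance. Among the 10 closest were H2-Ob, Tcf7, Cd8b1, Dapl1, Btla, Fcmr, Apol7c, Cd8a and Tnfrsf13c, with differences from 0.18 for H2-Ob to 0.30 for Tnfrsf13c. The members themselves lay between 0.14 for Ms4a1 and 0.54 for Cd79a from their own mean profile. Of these 9, H2-Ob, Btla, Fcmr and Tnfrsf13c were on the B cell lists, Tcf7, Cd8b1 and Cd8a on the T cell list, and Dapl1 and Apol7c on none. Tcf7, a transcription factor of T cells, had 0.63, 0.70 and 71.85 TPM on HFD and 96.55, 0.70 and 108 TPM with hesperidin. Cd8b1, a chain of the CD8 coreceptor, had 0.24, 0.39 and 49.3 TPM on HFD and 64.6, 0.29 and 73.2 TPM with hesperidin.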

How the data were processed

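The deposited table holds the authors' TPM for each gene and library, and group means. Tools listed by the submitters' processing notes are HISAT2, StringTie, RSEM, fastp and DESeq2, with no version or role. Strand handling, annotation and genome build were not given in the sources used here. Per the labels' protocols, TRIzol RNA was made into TruSeq libraries. TPM columns have equal totals within rounding, so a rise of abundant transcripts lowers all others.

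The 15446 of 57180 genes whose 6-library mean reached 1 TPM were fitted in limma 3.58.1 (R 4.3.3) on log2(TPM + 1), HEP against HFD, with an intensity trend, two-sided, adjusted by Benjamini-Hochberg over all genes tested, threshold 0.05. A fold change on this scale understates that of low genes. The code was tested on simulated data with the spread of each gene capped, so that test does not cover genes that vary as much as the members. All 9 members were tested.

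The members and gene lists were chosen with earlier results of these data known. Named are the members, the up to 4 most abundant tested genes of each other B cell list, up to 3 of lists of other cell types, and the 10 genes of most similar profile, leaving out predicted genes and antigen receptor segments. For lists of other cell types, values of single genes are given for some of these only. A gene that the rule would name is not reported here. Genes outside this rule are said to be named after their values were seen. In GENCODE mouse release M21 the exons of Pax5 overlap antisense genes, listed at 0.32 TPM at most, and those of Cd22 one listed at 0. Without strand their reads cannot be told apart.

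Alternatives were pseudocounts of 0.1 and 0.01, no filter or a mean of 5 TPM, median-of-ratios scaling, quantile normalization, rescaling without immunoglobulin and skeletal muscle genes, the replicate number as a block, the T cell mean as a covariate, robust empirical Bayes, and leaving out libraries.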

Additional observations from a re-analysis of the deposited data

How the results depend on the processing

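Under the 17 alternatives no member passed an adjusted limma p of 0.05, and the lowest adjusted p of any member was 0.207, without HEP replicate 2. Of 153 member estimates 152 stayed above 0. The exception was Cd22 with the T cell mean as a covariate, at -0.00497, where the members ran up to 0.42. The number of all genes called stayed at 0, except for the fits that left out 1 library, where it ran from 0 to 1, the 1 being without HEP replicate 2. At an unadjusted p under 0.05 there were 3683 genes (23.8%) in that fit and 279 (1.81%) with all libraries. Pseudocounts of 0.1 and 0.01 gave medians over the members of 2.83 and 2.93, and median-of-ratios scaling and quantile normalization 2.25 and 2.32. Quantile normalization also moved the median of all tested genes from 0.07 to -0.06. With the replicate block 0 genes and 0 members were called, as without it, and the members' adjusted p was 0.753. The labels do not say that equal numbers mark a shared litter or day, and deviations of same-numbered libraries correlated at -0.35, 0.37 and 0.65 for numbers 1, 2 and 3 across genes. HFD replicates 2 and 3 correlated best with the HEP library of the same number, but HFD replicate 1 correlated best with HEP replicate 2, at 0.48. Positive correlations were found only between libraries on the same side of the B cell split, so they cannot decide on pairing. Without a pairing in the labels, the numbers were not taken as pairs. Read depth is unknown, so values under 1 TPM, and ratios among them, have unknown counting error.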
